A study of Mus musculus with 27 samples.

Results

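The Notch receptors Notch1, Notch2 and Notch3, the ligands Jag1, Jag2 and Dll1, the glycosyltransferase Lfng and the target genes Hes1, Hey1 and Heyl were followed through TGF-β treatment of NMuMG cells, a normal mouse mammary epithelial line. These 10 genes were taken by name from the 23295 genes of the parental RNA table and the 24247 genes of the shRNA table, and lamin B1 ChIP-seq and ATAC-seq peaks were read at their loci on the mouse genome build mm9. RNA was measured in parental cells, in control cells infected with an irrelevant shRNA and in KD cells infected with an shRNA against lamin B1. Each kind of cell was taken untreated (0 h) and after 8 h and 24 h of TGF-β, given at 1 to 5 ng/ml according to the labels, in medium with serum and insulin, and each of the 9 groups had 2 libraries from separate biological replicates according to the methods of the study. No untreated group was listed at 8 h or 24 h, so TGF-β and time in culture cannot be told apart. Lamin B1 ChIP-seq and ATAC-seq, which finds open chromatin by transposase insertion, had 1 library per time point. The labels name no shRNA for these libraries and do not say that the cells were parental. Expression is given as FPKM, the number of fragments scaled to transcript length and to the mapped total, as the authors computed it. The tables were normalized separately, so levels are compared only within one table.

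Notch receptors are cut after they bind a Jagged or Delta ligand on a neighbouring cell, and the freed intracellular part joins the DNA-binding protein RBPJ on target genes such as those of the Hes and Hey repressors. Fringe proteins such as LFNG add sugars to the receptor and so shift which ligands it answers to. In mammary epithelium, Notch signalling is known for its part in the choice between luminal and basal fates, and JAG1 is a known transcriptional target of TGF-β in epithelial cells undergoing EMT, the epithelial to mesenchymal transition.

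Libraries of one group had correlations from 0.983 to 0.9945 over genes, and the steps between low FPKM values put the relative depth of the libraries between 79.0% and 116% of the first library of their table, while the number of reads is unknown. Lmnb1, the targeted gene, was lower in KD than in control cells at every time, with 29.2 and 36.5 FPKM in untreated control cells against 9.01 and 9.27 FPKM in KD cells. The KD replicates at 24 h stood apart from each other, with 4.37 and 7.52 FPKM of Lmnb1 and 415 and 942 FPKM of Fn1, which encodes the matrix protein fibronectin. Of 6 epithelial markers, Krt8 (2024 to 3938 FPKM) and Cdh1 (26.8 to 127 FPKM) were high, whereas Cldn7 was under 1 FPKM in every library and Epcam ran from 0.17 to 3.15 FPKM. The summed level of 3 leukocyte markers was at most 1.94 FPKM and that of 3 endothelial markers at most 1.51 FPKM. In such bulk samples, fewer cells of a type and less RNA per cell cannot be told apart.

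The stretches just upstream of the start sites of Hes1 and Lfng are shown because lamin B1 and ATAC peaks lay on or near them and because each holds the core letters of the RBPJ motif, in capitals. Those of Jag1 and Notch1 follow because a lamin B1 peak lay over both start sites at all times while the RNA of these genes moved in opposite directions. Each is the 250 bases before the start site of the annotated transcript (GENCODE M1, mm9), read 5′ to 3′ along the gene.
Hes1 (chr16:30065176-30065425, plus strand): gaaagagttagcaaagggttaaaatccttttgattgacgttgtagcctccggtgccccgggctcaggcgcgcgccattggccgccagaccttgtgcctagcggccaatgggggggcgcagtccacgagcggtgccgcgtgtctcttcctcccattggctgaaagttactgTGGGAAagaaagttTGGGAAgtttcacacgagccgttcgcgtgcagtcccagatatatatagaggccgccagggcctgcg
Lfng (chr5:141083045-141083294, plus strand): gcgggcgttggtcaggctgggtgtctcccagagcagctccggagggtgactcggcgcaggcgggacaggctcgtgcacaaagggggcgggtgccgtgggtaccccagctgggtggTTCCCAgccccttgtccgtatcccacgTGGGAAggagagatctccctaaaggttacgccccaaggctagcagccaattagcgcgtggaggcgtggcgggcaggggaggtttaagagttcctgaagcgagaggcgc
Jag1 (chr2:136942381-136942630, minus strand): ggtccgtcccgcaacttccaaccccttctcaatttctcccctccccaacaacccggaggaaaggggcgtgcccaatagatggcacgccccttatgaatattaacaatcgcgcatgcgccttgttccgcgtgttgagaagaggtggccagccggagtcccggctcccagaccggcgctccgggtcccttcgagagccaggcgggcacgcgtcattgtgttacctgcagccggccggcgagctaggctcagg
Notch1 (chr2:26359343-26359592, minus strand): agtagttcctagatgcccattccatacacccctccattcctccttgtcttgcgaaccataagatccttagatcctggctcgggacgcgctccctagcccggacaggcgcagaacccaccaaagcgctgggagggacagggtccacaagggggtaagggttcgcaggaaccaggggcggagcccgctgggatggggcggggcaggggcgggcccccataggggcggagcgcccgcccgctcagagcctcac

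In parental cells, Notch1 was lower and Notch2 higher after TGF-β than before it. Notch1 (chr2:26313423-26372183, minus strand, 34 exons in the annotated transcript), the receptor best known from cell fate choices, had 5.94 and 6.68 FPKM in untreated cells, 1.97 and 2.80 FPKM after 8 h, and 0.73 and 0.87 FPKM after 24 h. The 3 groups did not overlap, and the level dropped again between 8 and 24 h. Mean FPKM was 2.64-fold lower at 8 h and 7.86-fold lower at 24 h, and on the log2(FPKM + 1) scale, which understates changes of low genes, the differences were -1.12 ± 0.12 (SE, limma, adjusted p = 0.000365) and -2.02 ± 0.12 (adjusted p = 9.19e-06). Notch2 (chr3:97817461-97954290, plus strand), a receptor with the same domain order, had 11.4 and 13.7 FPKM before treatment, 20.3 and 19.8 FPKM after 8 h, and 23.7 and 22.7 FPKM after 24 h. Its treated libraries all lay above the untreated ones, by 0.64 ± 0.08 at 8 h (adjusted p = 0.000626) and 0.84 ± 0.08 at 24 h (adjusted p = 7.42e-05). Notch1 fell while Notch2 rose in the same libraries. Notch3 (chr17:32257765-32303825, minus strand) was between 0.057 and 0.14 FPKM in every parental library, under the minimum of 1 FPKM in 2 libraries set for testing.

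The same receptors moved in the same directions in control and KD cells. In control cells Notch1 went from 12.4 and 10.4 FPKM to 1.29 and 1.23 FPKM after 8 h and to 0.43 and 0.44 FPKM after 24 h, 9.03-fold and 26.1-fold lower on mean FPKM. In KD cells it went from 15.0 and 13.9 FPKM to 1.55 and 1.27 FPKM and then to 0.63 and 0.97 FPKM, 10.3-fold and 18.2-fold lower. No treated library reached an untreated one in either kind of cell. All 4 differences passed the test, from -2.45 ± 0.11 (control, 8 h, adjusted p = 2.84e-07) to -3.11 ± 0.11 (KD, 24 h, adjusted p = 3.26e-08). Notch2 rose in control cells from 14.2 and 12.8 FPKM to 24.5 and 22.8 FPKM after 8 h and 21.5 and 23.7 FPKM after 24 h, and in KD cells from 14.9 and 14.1 FPKM to 27.9 and 23.0 FPKM and 24.4 and 24.6 FPKM. Its differences lay between 0.70 and 0.76, each with an SE of 0.09, and each passed the test. Notch3 stayed under the filter here too, between 0.0023 and 0.062 FPKM, and was not tested.

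**Figure D1:**
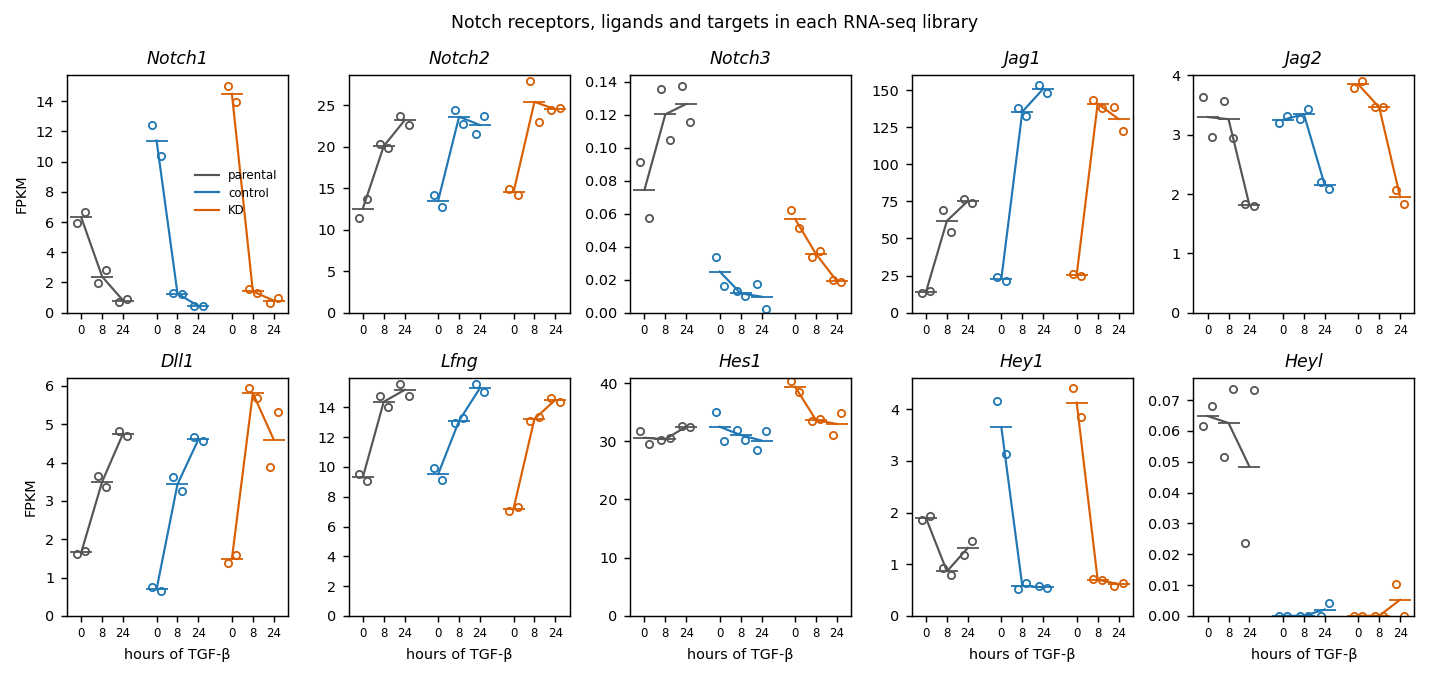
FPKM of the 10 genes in each RNA-seq library (circles) by hours of TGF-β, with the mean of the 2 libraries of a group as a dash joined by lines, for parental, control and KD cells; each panel has its own linear scale from 0. Notch1 and Hey1 drop, Jag1 and Dll1 climb in all 3 kinds of cell, and Notch3 and Heyl stay under 0.14 FPKM.

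Among the ligands, Jag1 had the largest rise of the 8 genes tested in each of the 6 comparisons with untreated cells on the log2(FPKM + 1) scale, while on mean FPKM Dll1 rose slightly more in control cells at 24 h (6.65-fold against 6.62-fold). Jag1 (chr2:136907192-136942380, minus strand, 26 exons), a membrane ligand of the Jagged class, had 13.3 and 14.8 FPKM in untreated parental cells, 69.3 and 54.5 FPKM after 8 h, and 76.7 and 73.8 FPKM after 24 h. Treated and untreated groups did not overlap, and most of the rise was in place by 8 h. The differences were 2.06 ± 0.11 at 8 h (4.41-fold on mean FPKM, adjusted p = 3.53e-05) and 2.34 ± 0.11 at 24 h (5.36-fold, adjusted p = 2.99e-06), and the further difference from 8 to 24 h of 0.29 ± 0.11 did not pass the test (adjusted p = 0.0598). In control cells Jag1 went from 23.9 and 21.7 FPKM to 138 and 133 FPKM after 8 h and 153 and 148 FPKM after 24 h. KD cells went from 26.4 and 24.9 FPKM to 144 and 138 FPKM and then to 138 and 123 FPKM. Control cells were thus 5.94-fold and 6.62-fold, and KD cells 5.50-fold and 5.09-fold, above their untreated level, with adjusted p from 5.95e-09 to 2.02e-08 in these 4 comparisons.

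Dll1 (chr17:15504318-15513836, minus strand), a ligand of the Delta class, also rose at both times in all 3 kinds of cell. Parental cells had 1.61 and 1.69 FPKM before treatment, 3.64 and 3.36 FPKM after 8 h and 4.83 and 4.69 FPKM after 24 h, and the 3 groups did not overlap. The differences were 0.76 ± 0.06 and 1.12 ± 0.06, and the later step from 8 to 24 h, of 0.36 ± 0.06, also passed the test (adjusted p = 0.00318). Control cells started at 0.75 and 0.64 FPKM and reached 3.62 and 3.24 FPKM after 8 h and 4.66 and 4.55 FPKM after 24 h, a difference of 1.73 ± 0.11 at 24 h (adjusted p = 1.31e-06). KD cells started at 1.39 and 1.60 FPKM, reached 5.95 and 5.67 FPKM after 8 h and held 3.87 and 5.32 FPKM after 24 h, where the difference was 1.16 ± 0.11 (adjusted p = 1.66e-05).

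Jag2 (chr12:114146801-114167706, minus strand), the other Jagged ligand, fell late. Parental cells had 3.63 and 2.97 FPKM untreated and 3.58 and 2.95 FPKM after 8 h, which overlap, and 1.83 and 1.79 FPKM after 24 h, below all earlier libraries. The difference at 24 h was -0.61 ± 0.10 (adjusted p = 0.00133) in parental cells, -0.43 ± 0.06 (adjusted p = 0.000131) in control cells and -0.72 ± 0.06 (adjusted p = 4.55e-06) in KD cells. Control cells had 3.20 and 3.31 FPKM untreated, 3.27 and 3.43 FPKM after 8 h and 2.21 and 2.09 FPKM after 24 h, and KD cells had 3.79 and 3.91, 3.46 and 3.46, and 2.07 and 1.83 FPKM. At 8 h no difference of Jag2 passed the test, with values from -0.12 to 0.03. By 24 h Jag1 and Dll1 were therefore up and Jag2 down in each kind of cell.

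Lfng (chr5:141083295-141091497, plus strand), whose product extends sugars on Notch receptors, rose in every comparison with untreated cells. In parental cells it had 9.56 and 9.04 FPKM, then 14.8 and 14.0 FPKM after 8 h and 15.6 and 14.8 FPKM after 24 h. Control cells had 9.91 and 9.14 FPKM, then 12.9 and 13.3 FPKM and 15.6 and 15.1 FPKM, and KD cells had 7.07 and 7.32 FPKM, then 13.1 and 13.4 FPKM and 14.6 and 14.4 FPKM. Treated libraries lay above untreated ones throughout. The differences ran from 0.42 ± 0.05 (control, 8 h) to 0.92 ± 0.05 (KD, 24 h), all past the test.

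The target genes did not move as one. Hey1 (chr3:8663362-8667039, minus strand), a repressor that Notch signalling induces in many tissues, fell in all 3 kinds of cell. Parental cells had 1.85 and 1.94 FPKM untreated, 0.92 and 0.80 FPKM after 8 h and 1.17 and 1.46 FPKM after 24 h. The difference was -0.64 ± 0.08 at 8 h (adjusted p = 0.000877) and -0.32 ± 0.08 at 24 h (adjusted p = 0.0114), and the partial return between these times also passed the test (0.31 ± 0.08, adjusted p = 0.0191). That step lost its call under quantile normalization (adjusted p = 0.0894) and without either of 2 libraries, 1 at 8 h and 1 at 24 h (adjusted p = 0.0635 and 0.145). The fall at 24 h in parental cells also lost its call without either of 2 libraries (adjusted p = 0.062 and 0.0973). In control cells Hey1 went from 4.16 and 3.14 FPKM to 0.52 and 0.64 FPKM after 8 h and 0.58 and 0.53 FPKM after 24 h, and in KD cells from 4.41 and 3.84 FPKM to 0.71 and 0.69 FPKM and 0.58 and 0.65 FPKM. These levels were 5.89-fold to 6.73-fold under the untreated ones, with no return at 24 h. In the shRNA table Hey1 reached 1 FPKM in the untreated libraries alone, so it was tested there through the groups in which it is high. Its calls in control and KD cells draw on those same groups and are no separate support for a fall.

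Hes1 (chr16:30064470-30067882, plus strand), the repressor most often used to read Notch activity, changed little. Parental cells had 31.8 and 29.5 FPKM untreated, 30.2 and 30.5 FPKM after 8 h and 32.6 and 32.5 FPKM after 24 h, and neither difference passed the test (-0.01 ± 0.05, adjusted p = 0.858, and 0.09 ± 0.05, adjusted p = 0.134). Control cells had 35.0 and 30.0 FPKM untreated, 32.0 and 30.2 FPKM after 8 h and 28.5 and 31.7 FPKM after 24 h, groups that overlap. KD cells had 40.3 and 38.4 FPKM untreated, 33.4 and 33.8 FPKM after 8 h and 31.0 and 34.9 FPKM after 24 h, so both treated groups lay below the untreated one, by -0.22 ± 0.08 (adjusted p = 0.0436) and -0.25 ± 0.08 (adjusted p = 0.0247). Both of these calls in KD cells were lost under quantile normalization (adjusted p = 0.118 and 0.0754). The call at 8 h was also lost with no filter on low FPKM (adjusted p = 0.0738), with a replicate block (adjusted p = 0.0599) and without any 1 of the 4 KD libraries (adjusted p from 0.0775 to 0.18), and that at 24 h without any 1 of 3 of the 4 (adjusted p from 0.0508 to 0.138). The median change of all tested genes in the shRNA table was -0.14 at 8 h and -0.13 at 24 h in control cells and -0.13 and -0.10 in KD cells, and quantile normalization brought each of these to within 0.03 of 0. Relative to that median, Hes1 was at 0.08 and 0.03 in control cells and at -0.09 and -0.15 in KD cells, so its sign in control cells turned, while Notch1 stayed at -2.31 and -2.97 and Jag1 at 2.66 and 2.81 in control cells. Heyl (chr4:122910799-122927118, plus strand), a relative of Hey1, had 0.023 to 0.074 FPKM in parental cells, was listed at 0 in 10 of the 12 shRNA libraries, and was not tested.

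Counted over the receptors, ligands, Lfng and targets, 8 of the 10 genes passed the filter in each table, and these are not a count of all 10. In parental cells 6 of the 8 changed at 8 h (4 up, 2 down), where 54.5% of the 11309 genes tested were called, and 7 changed at 24 h (4 up, 3 down) against 70.5% of all genes. Between 8 and 24 h 4 of 8 changed (2 up, 2 down) against 51.8%. In control cells 6 of 8 changed at 8 h (4 up, 2 down) against 64.3% of 11450 genes, and 7 of 8 at 24 h (4 up, 3 down) against 70.7%. In KD cells 7 of 8 changed at 8 h (4 up, 3 down) against 67.8%, and all 8 at 24 h (4 up, 4 down) against 71.9%. The falls in control and KD cells include Hey1, which was tested there through its untreated libraries. These shares are near those of all genes, so the number of calls is no feature of the Notch genes. Of all genes called, rises made up 30.2% at 8 h and 36.1% at 24 h in control cells and 33.9% and 39.8% in KD cells, which quantile normalization moved to 46% and 50% and to 46% and 50.1%. The median difference of the 8 genes was 0.28 in parental cells at 8 h beside -0.05 for all genes, and 0.23 in control cells at 8 h beside -0.14.

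**Figure D2:**
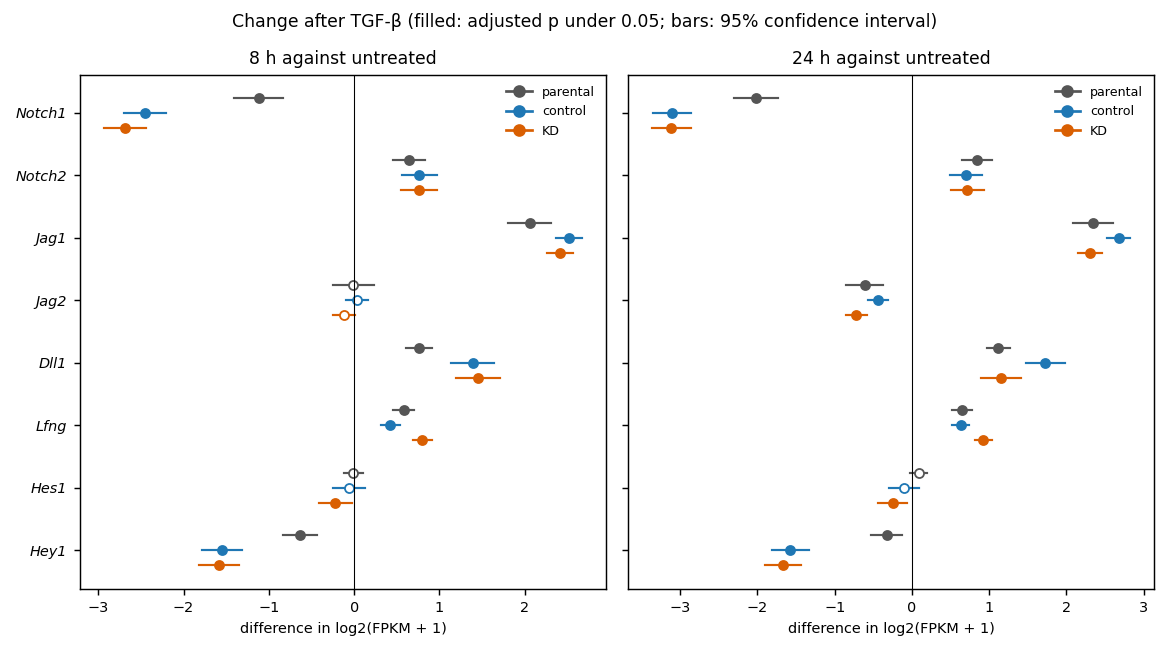
Difference in log2(FPKM + 1) between treated and untreated cells at 8 h (left) and 24 h (right) for the 8 genes tested, with 95% confidence intervals, in parental, control and KD cells; filled points passed an adjusted p of 0.05. Notch1 lies furthest to the left and Jag1 furthest to the right in each kind of cell, and the intervals of Hes1 lie close to 0.

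Lamin B1 KD and control cells were compared at each time to ask whether the KD cells held different levels of these genes. In untreated cells 3 of 8 genes differed, against 19.7% of all genes. Dll1 was higher in KD cells, with 1.39 and 1.60 FPKM against 0.75 and 0.64 FPKM, a difference of 0.56 ± 0.11 (2.16-fold, adjusted p = 0.0109). Lfng was lower, with 7.07 and 7.32 FPKM against 9.91 and 9.14 FPKM, a difference of -0.36 ± 0.05 (adjusted p = 0.00185). Jag2 was slightly higher, by 0.19 ± 0.06 (adjusted p = 0.0495). The Dll1 call was lost without control replicate 2 or without KD replicate 2 (adjusted p = 0.0511 and 0.0829). The Jag2 call was lost without any one of the 4 libraries (adjusted p from 0.0832 to 0.224). Notch1, Hes1 and Jag1 had higher values in both untreated KD libraries than in both control libraries, by 0.32 ± 0.11, 0.27 ± 0.08 and 0.16 ± 0.07, and did not pass the test (adjusted p = 0.0701, 0.0532 and 0.122).

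The treated cells had 1 call at each time, and whether these counts differ from the 3 of untreated cells was not tested. At 8 h Dll1 was the 1 gene called of 8, against 35.8% of all genes, with 5.95 and 5.67 FPKM in KD cells and 3.62 and 3.24 FPKM in control cells (0.62 ± 0.11, 1.69-fold, adjusted p = 0.00354). Lfng, lower in KD cells before treatment, had 13.1 and 13.4 FPKM against 12.9 and 13.3 FPKM after 8 h (0.01, 95% confidence interval -0.10 to 0.12). At 24 h 1 of 8 was called, against 28.3% of all genes, and that was Jag1, with 138 and 123 FPKM in KD cells below 153 and 148 FPKM in control cells (-0.21 ± 0.07, adjusted p = 0.0462). This Jag1 call was lost without KD replicate 2 (adjusted p = 0.195) and without either control replicate (adjusted p = 0.206 and 0.117). Dll1 at 24 h had 3.87 and 5.32 FPKM in KD cells, on either side of the 4.66 and 4.55 FPKM of control cells (-0.01, 95% confidence interval -0.27 to 0.24). Those KD libraries are the ones that also differ from each other in Lmnb1 and Fn1, and the part of that difference in these values was not tested.

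An interaction term tested whether KD cells answered TGF-β differently from control cells. At 8 h 1 of 8 genes was called, against 4.06% of all genes. The count over all genes behind that share, 465, ranged from 25 (without the untreated KD replicate 2) to 1486 (without the untreated control replicate 2). It was Lfng, which rose by 0.80 in KD cells and 0.42 in control cells, a difference of 0.37 ± 0.07 (adjusted p = 0.0286). The KD libraries lay below the control libraries before treatment and overlapped them at 8 h. Leaving out any 1 of the 6 libraries other than the untreated controls removed the call (adjusted p from 0.0986 to 0.128). At 24 h none of 8 was called by limma, against 4.72% of all genes, while 4 had an unadjusted p under 0.05. The 540 genes behind that share became 85 without the untreated KD replicate 1 and 2696 without KD replicate 1 at 24 h. The 4 Notch genes were Dll1 (-0.57 ± 0.16, adjusted p = 0.0791), Jag1 (-0.37 ± 0.09, adjusted p = 0.0631), Jag2 (-0.28 ± 0.08, adjusted p = 0.085) and Lfng (0.29 ± 0.07, adjusted p = 0.0502). Without KD replicate 1 at 24 h the differences were -0.39 for Dll1, -0.46 for Jag1, -0.34 for Jag2 and 0.28 for Lfng. Without KD replicate 2 at 24 h that of Dll1 was -0.76. A fit of only the groups compared called 0 of the Notch genes. For Notch1 the difference of responses at 24 h was -0.01, with a 95% confidence interval from -0.36 to 0.34, and for Notch2 it was 0.01, from -0.28 to 0.31.

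**Figure D3:**
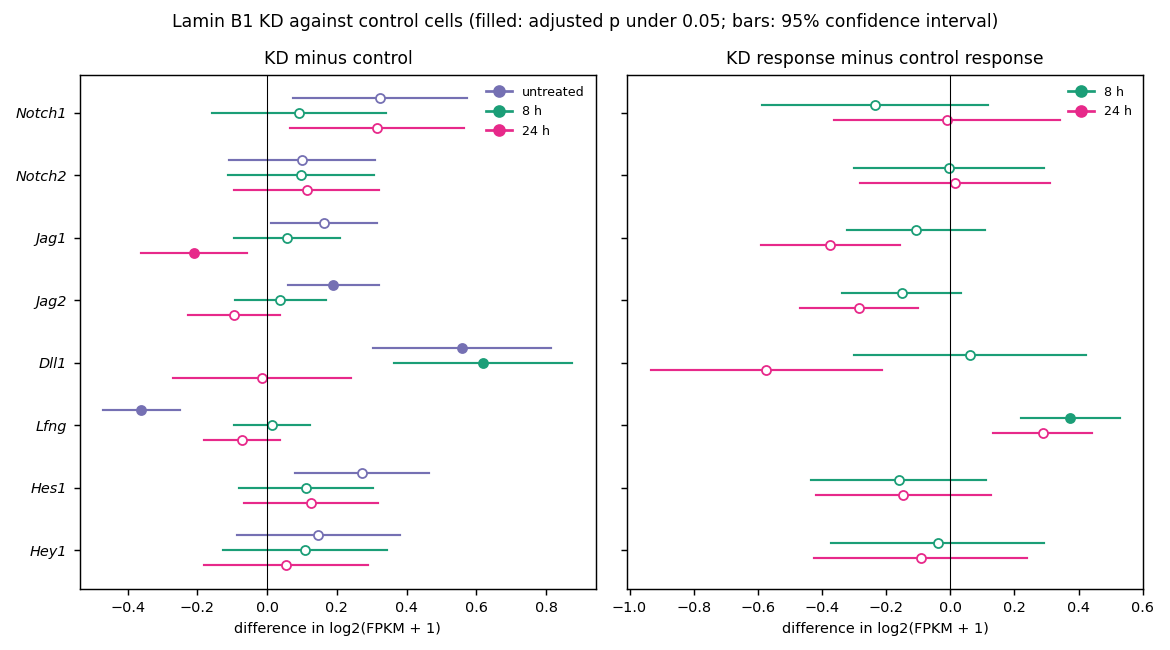
Difference in log2(FPKM + 1) between KD and control cells by time (left), and difference between the response of KD cells and that of control cells (right), for the 8 genes tested, with 95% confidence intervals; filled points passed an adjusted p of 0.05. Dll1 lies to the right at 0 and 8 h and at 0 by 24 h, and Lfng is lower in untreated KD cells with a positive difference of response at 8 h.

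The rest of the pathway was read from 45 further genes listed by role, of which 36 were tested in each table. In parental cells 13 rose and 8 fell at 8 h, 21 of 36 against 54.5% of all genes, and 20 rose and 9 fell at 24 h, 29 of 36 against 70.5%. In control cells 12 rose and 14 fell at 8 h (26 of 36 against 64.3%) and 18 rose and 10 fell at 24 h (28 of 36 against 70.7%). In KD cells 15 rose and 13 fell at 8 h (28 of 36 against 67.8%) and 20 rose and 7 fell at 24 h (27 of 36 against 71.9%). The falls include Dlk2, which reached the minimum for testing in untreated libraries alone, so it was tested through the groups in which it is high. Of the 7 regulators tested, such as Numb, Itch and the Deltex genes, 5 rose at 24 h in each kind of cell, and these were Dtx2, Dtx3, Dtx4, Fbxw7 and Numbl each time, while Itch and Numb were not called. Of all genes, 3781 of 11309 rose at 24 h in parental cells, 2924 of 11450 in control cells and 3277 of 11450 in KD cells, and no test compared the regulators with them. Dtx4, which encodes a Deltex ubiquitin ligase, went in parental cells from 2.13 and 2.26 FPKM to 15.0 and 13.4 FPKM after 24 h (2.25 on the log2(FPKM + 1) scale).

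KD and control cells were also compared by role. Calls of these further genes, unlike those of the genes above, were not checked under other settings or without single libraries. Of 8 genes of receptor cleavage tested, KD cells had 1 up and 1 down when untreated (19.7% of all genes called), 5 up and 1 down after 8 h (35.8%), and 4 up with none down after 24 h (28.3%). The nuclear complex had 4 of 10 genes called when untreated, 3 after 8 h and 2 after 24 h, and no test compared the roles. Ncstn, which encodes nicastrin, a subunit of the γ-secretase that frees the receptor's intracellular part, was higher in KD cells at 24 h, with 62.7 and 69.7 FPKM against 49.9 and 48.8 FPKM (0.42 ± 0.06, adjusted p = 0.00196). Its partner subunit Aph1b was higher at 24 h as well, at 4.37 and 4.24 FPKM against 2.85 and 2.87 FPKM (0.46 ± 0.09, adjusted p = 0.00585). Adam17, a protease that can cut receptors and ligands at the cell surface, was lower in KD cells at 8 h, at 11.8 and 11.5 FPKM against 15.0 and 14.8 FPKM (-0.33 ± 0.05, adjusted p = 0.00147). Numb, which encodes an inhibitor of Notch receptors, was lower in KD cells at each time, by -0.33, -0.29 and -0.27. Rbpj itself was higher in untreated KD cells, with 22.1 and 22.2 FPKM against 18.2 and 18.9 FPKM (0.24 ± 0.05, adjusted p = 0.00958).

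Over the whole list, KD cells had 4 genes up and 5 down when untreated, 10 up and 5 down after 8 h, and 7 up and 3 down after 24 h, relative to control cells. These 9, 15 and 10 of 36 genes stand beside 19.7%, 35.8% and 28.3% of all genes. The difference of responses called none of the 36 genes at 8 h by limma, with 8 at an unadjusted p under 0.05, and 4 at 24 h. Over all genes, a fit of only the groups compared called 86 in place of 540 at 24 h, and whether the 4 calls hold there was not checked. The 4 genes were Psenen (0.24 ± 0.05), and in the other direction Maml2 (-0.56 ± 0.11), Notch4 (-0.39 ± 0.08) and Rbpj (-0.33 ± 0.07). Notch4, the fourth receptor, climbed from 0.053 and 0.085 FPKM to 1.67 and 1.58 FPKM after 24 h in control cells and from 0.040 and 0.035 FPKM to 0.92 and 0.97 FPKM in KD cells, and these levels are low. Only the control libraries at 24 h reached 1 FPKM, so Notch4 was tested here through the group in which it is high. Its difference of responses at 24 h draws on that same group and is no separate support. The median of the list lay between -0.03 and 0.21 in these 9 comparisons of the shRNA table, where that of all genes lay between -0.14 and 0.03.

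**Figure D4:**
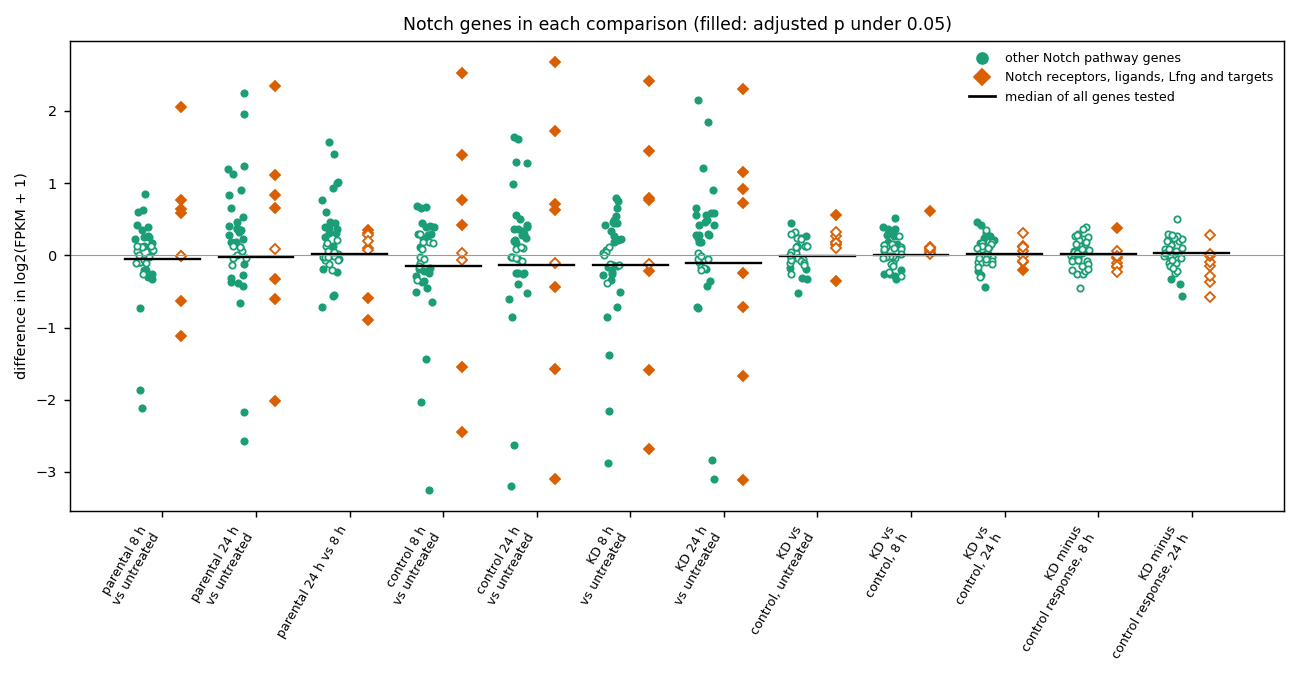
Difference in log2(FPKM + 1) in each of the 12 comparisons for the 36 other Notch pathway genes tested (circles) and for the 8 receptors, ligands, Lfng and targets (diamonds), with the median of all genes tested as a bar; filled symbols passed an adjusted p of 0.05. The symbols spread from -3.25 to 2.68 in the comparisons with untreated cells and lie close to 0 between KD and control cells.

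Notch1 spanned the widest range of the 8 genes over the 6 groups of the shRNA table, 3.43 on the log2(FPKM + 1) scale. Of 8464 other genes with a mean of at least 5 FPKM, Tspan15 was nearest to it in shape, with a root mean square difference of 0.18 between centred group means, followed by Rbm47 (0.21) and Gclc (0.25), where the median gene was at 1.31. Tspan15, a tetraspanin, had mean levels of 40.5 FPKM in untreated control cells, 8.25 FPKM after 8 h and 4.27 FPKM after 24 h. This likeness is a description over 6 group means that share their libraries.

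Lamin B1 peaks were found at 6 of the 10 loci before treatment, 9 after 8 h and 8 after 24 h, counting any peak from 2500 bp upstream of the gene to its 3′ end. Of 21749 genes that could be placed, 19.8%, 38.8% and 29.4% had such a peak at these times. With 1 library per time point these counts have no error, and they move with the number of peaks called, which was 4645, 10484 and 7083. With each list limited to its 4645 highest peaks, the counts were 6, 7 and 7, beside 19.8%, 21.1% and 21.1% of placed genes. Notch3 and Heyl then had no peak at 8 h, and Notch3 had none at 24 h. Genes that pass the expression filter carried peaks more often, 33.5%, 56.4% and 44.0% of 11024 genes, beside 5, 7 and 7 of the 8 expressed Notch genes. Over the 10 loci the peaks numbered 7, then 20, then 12. Heights are MACS scores, which start at 50 in these lists and are larger for smaller p-values. The median score of a lamin B1 list was 69.8 untreated, 79.4 at 8 h and 83.3 at 24 h, so scores are not on one scale over time.

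The receptors differed in where lamin B1 lay. Notch1 had a peak over its start site at all times, with scores of 98.0 (untreated), 116 (8 h) and 159 (24 h), above 79.5%, 76.4% and 87.3% of the peaks of its list, and at 8 h 4 further peaks inside the gene, from 15.7 to 43.4 kb downstream of the start, the highest at 139. Notch2 also had 1 peak over its start site at each time, scoring 66.0, 126 and 77.8, above 43.4%, 80.4% and 44.3% of the peaks of its list. Notch3, whose RNA was near 0, had peaks inside the gene and not over its start site, 1 untreated (69.8), 3 at 8 h (up to 82.7) and 1 at 24 h (56.5). The highest at each time lay above 49.9%, 53.4% and 13.3% of the peaks of its list.

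Of the ligands, Jag1 had a peak over its start site at all times, with scores of 232, 305 and 191, above 98.7%, 98.7% and 92.5% of the peaks of its list. Jag2 had none before treatment, then 1 over its start site after 8 h (141) and after 24 h (84.8), while its RNA fell between these times. Dll1 had a single lamin B1 peak, at 24 h, centred 1.06 kb downstream of its start site (93.1). Lfng had a peak over its start site at all times, scoring 150, 132 and 59.9, above 94.4%, 82.3% and 20.5% of the peaks of its list. At 24 h a separate peak (62.1) lay just upstream of it, at -1138 to -426 bp, where the peaks of earlier times spanned both stretches. The RNA difference of Lfng from 8 to 24 h in parental cells did not pass the limma test (0.07 ± 0.05, adjusted p = 0.294).

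At the targets, Hes1 carried the highest lamin B1 score of the 10 loci at 8 h and at 24 h, while in untreated cells Jag1 and Lfng scored above it. Its highest peak, reaching or lying just upstream of the start site, scored 148 before treatment, 313 after 8 h and 408 after 24 h, above 94.2%, 98.8% and 99.4% of the peaks of its list, with the centre at -0.72, -0.86 and -1.32 kb from the start site. Hes1 RNA was about level in parental cells over these times. Hey1 had lamin B1 peaks at 8 h alone, 1 over its start site (127) and 1 at 2.21 kb (74.5), the time at which its RNA was lowest in parental cells. In control and KD cells its mean was lowest at 24 h, at 0.55 and 0.61 FPKM against 0.58 and 0.70 FPKM at 8 h. Heyl had 1 peak, at 8 h, 6.38 kb inside the gene (61.5, above 23.7% of the peaks of its list). No relation between score and RNA over 3 time points can be tested.

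Open chromatin at the same loci had another order. ATAC peaks lay in the gene windows of 5 of 10 loci before treatment, 5 after 8 h and 8 after 24 h, beside 37.1%, 33.0% and 60.1% of all placed genes. Among expressed genes the shares were 64.4%, 55.9% and 92.9%, beside 5, 5 and 7 of the 8 expressed Notch genes. The lists held 9782, 10340 and 33811 peaks. With each list limited to its 9782 highest peaks, the gene windows of Notch2, Jag1 and Hey1 still held an ATAC peak at 24 h, and those of Notch1, Notch3, Dll1, Lfng and Hes1 did not. Jag1, Notch2 and Hey1 had an ATAC peak over the start site at all times, with scores of 150, 147 and 296 at Jag1, 106, 71.4 and 214 at Notch2, and 137, 96.5 and 771 at Hey1. The median score of an ATAC list was 93.06 untreated, 73.85 at 8 h and 155.2 at 24 h, so ATAC scores too are not on one scale over time. These peaks lay above 81.4%, 96.4% and 76.4% of their list at Jag1, 59.7%, 46.0% and 63.3% at Notch2, and 76.5%, 76.0% and 99.4% at Hey1. Hey1 thus had its highest ATAC score at 24 h, above 99.4% of that list, while its RNA was under the untreated level. Hes1 had a peak centred at -1.54 and -1.50 kb in untreated and 8 h cells (91.3 and 72.7) and a wide one of 5018 bp over the start site at 24 h (216), and outside the gene window a further peak near 5.2 kb at all times (74.7, 58.6 and 467).

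Dll1 had an ATAC peak over its start site at 24 h alone (251), and Lfng had one untreated (53.6) and at 24 h (239) and none over the start site at 8 h. Both peaks at 24 h were among those absent from lists of equal length. Both genes had risen by 8 h in the RNA libraries. Notch2 had 1 intronic or exonic peak beyond the start site untreated, 2 at 8 h and 6 at 24 h, the highest at 43.5 kb (528). The list at 24 h held 33811 peaks, against 9782 untreated and 10340 at 8 h, and such counts move with list length. Those 6 peaks ranked above 32.3% to 95.2% of the list. The lower ones, like the Notch2 peak over the start site (63.3%), lay outside its 9782 highest. Notch1 had no ATAC peak over its start site at any time and 1 inside the gene at 24 h (58.3), although lamin B1 peaks lay over that start site throughout. Jag2 and Heyl had no ATAC peak. Of the lamin B1 peaks in the gene windows, 4 of 7 overlapped an ATAC peak by at least 1 bp before treatment, 5 of 20 after 8 h and 8 of 12 after 24 h. ATAC peaks covered 10.03, 8.41 and 40.15 Mb of the genome at these times. The share over all lamin B1 peaks was not computed, so these counts cannot be read as a trait of the Notch loci.

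**Figure D5:**
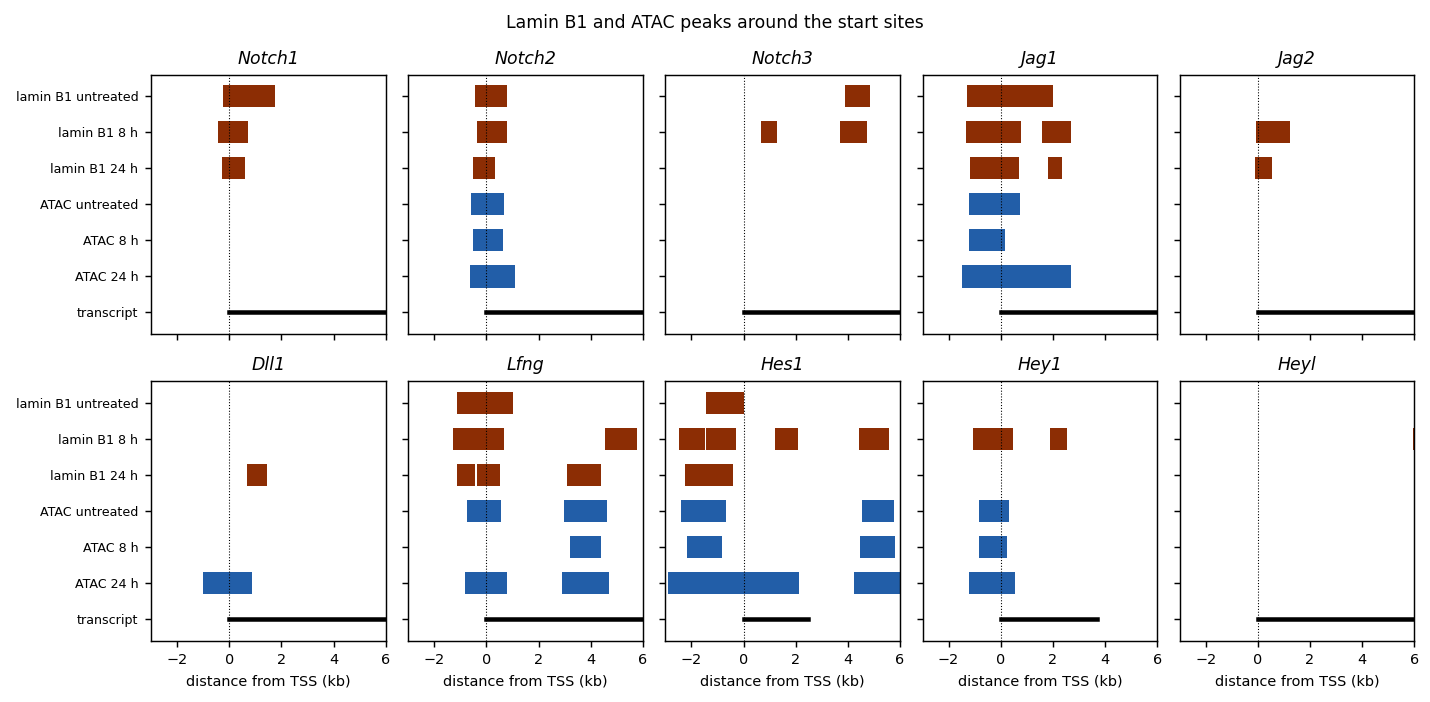
Lamin B1 (brown) and ATAC (blue) peaks from 3 kb upstream to 6 kb downstream of each start site, by time of TGF-β, with the annotated transcript as a black line. Notch1 has lamin B1 but no ATAC peaks at its start site, Hey1 has ATAC peaks at all times and lamin B1 peaks at 8 h alone, and Dll1 has peaks at 24 h alone, of which the ATAC peak is absent when lists are limited to equal length.

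The 250 bases before the start sites were searched on both strands for short motifs in all 10 genes. The RBPJ core TGGGAA occurred in Hes1, at positions -80 to -75 and -66 to -61 from the start, and in Lfng, at -135 to -130 on the opposite strand and -108 to -103 on the gene's strand, so each carried 2 copies, and in none of the other 8 genes. It occurs in 21.0% of 21745 promoters of this length. The N-box CACNAG, the site of Hes repressors, was in 5 of 10, with 3 copies in Hes1, beside 35.5% of promoters. The Smad core CAGAC was in 4 of 10, Jag1 among them, beside 40.6%. The E-box CAGGTG of Zeb and Snail factors (16.8% of promoters) and the AP-1 site TGANTCA (5.96%) were in none. Matches of different motifs did not overlap, and a match of letters is not a bound site. The G + C content of the 10 stretches ran from 51.6% in Heyl to 87.2% in Jag2, and in 6 of 10 it exceeded the upper quartile of all promoters, 63.6%.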

How the data were processed

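Per the labels and methods, the authors processed RNA-seq reads against mm9, with Bowtie, TopHat and Cufflinks named in the submitters' processing notes without versions, and deposited FPKM values for each library. The deposited tables have no header, so columns follow the order given in the descriptions, and the parental columns carry no replicate numbers. The authors deposited MACS peaks with a score per peak, 1 list per time point. Parallel ChIPs were mixed before sequencing, according to the methods. Hi-C and the authors' other experiments were not analysed here.

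FPKM values were tested as log2(FPKM + 1) with limma (version 3.58.1, R 4.3.3), using a moderated two-sided test with a trended prior and a single fit per table. A gene needed 1 FPKM or more in 2 or more libraries to be tested, and was called at a Benjamini-Hochberg adjusted p under 0.05 over the table, in 12 comparisons. Scripts were tested on simulated data. Peaks were compared with GENCODE M1 genes in Python 3.11.15 by an overlap of at least 1 bp. In the parental table, 21749 of 23295 symbols were placed, 20994 by symbol and 755 by an older symbol, and 1339 had no match and 207 were ambiguous. Start sites are those of the CCDS transcript with the lowest number. Of the 10 genes, 7 were in a RefSeq promoter table of GRCm38.p6, and 4 of these had the same start. Jag1 differed by 124 bp, Notch3 by -10 bp, and Dll1 by 153 bp and -956 bp at its listed starts. Hes1, Hey1 and Heyl were not in that table.

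The named genes are the 10 genes, Lmnb1, markers, and the 3 genes most like the widest ranging of the 10. Further Notch pathway genes were named where called between KD and control cells or where a sentence on a count needed them. Members and lists were chosen with earlier results of these data known. The replicate numbers of the shRNA table were not used to pair samples in the main fit. The alternatives were a pseudocount of 0.1, no filter, quantile normalization, separate fits of the groups compared, a replicate block, leaving out each library, a 2-fold minimum, and for peaks other windows, higher scores and lists of equal length. The shares among expressed genes were added after seeing the data.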

Additional observations from a re-analysis of the deposited data

Results flagged for a closer look

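Lfng was flagged because its response to TGF-β at 8 h differed between KD and control cells by a test of the difference itself, 0.37 on the log2(FPKM + 1) scale.

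Hes1 was flagged because both parental libraries at 24 h lay above both untreated ones (0.087) while both KD libraries at 24 h lay below both untreated ones (-0.25), and this difference between kinds of cell, which come from separate tables, was not tested.

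Notch3 was flagged for the same reason. Its mean FPKM at 8 h minus untreated was 0.046 in parental cells, -0.013 in control cells and -0.021 in KD cells, and at 24 h it was 0.052 in parental and -0.038 in KD cells. These levels are under 0.14 FPKM in every library, and the difference was not tested.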

How the results depend on the processing

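Of 997 values of the 8 tested Notch genes under alternatives, 904 kept their side of the threshold, 68 lost a call, 25 gained one and none reversed a call. Among those 904, 33 values called in neither fit changed sign. Calls of the further pathway genes were not checked under alternatives. With the 2-fold minimum the number of Notch genes called was 2 and 3 in parental cells at 8 h and 24 h, 0 between those times, 4 in control cells at 24 h, 4 in KD cells at 8 h and 24 h, and 0 in each comparison of KD with control cells and in the difference of responses at 8 h. Of KD against control cells at 24 h, 2 genes were called with a pseudocount of 0.1, and 0 without the filter or in a fit of only the groups compared. The difference of responses at 24 h called 2 genes with a pseudocount of 0.1, 2 with quantile normalization and 1 with the replicate block, which was Jag1 (adjusted p = 0.0251).

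With 1 library left out, the counts ranged from 6 to 6 in parental cells at 8 h, 6 to 8 at 24 h and 3 to 5 between these times, 6 to 6 and 7 to 7 in control cells, 6 to 6 and 7 to 8 in KD cells, 1 to 5 (untreated), 1 to 1 (8 h) and 0 to 2 (24 h) between KD and control cells, and 0 to 1 and 0 to 4 for the difference of responses at 8 h and 24 h. Among untreated cells the count of 1 came without control replicate 2 or KD replicate 2, and the count of 5 without control replicate 1.

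ATAC peaks at or above the median score of their list left 3 of the 10 genes in untreated cells and 3 at 8 h, a window of 500 bp on each side of the start site left 3 at 8 h, and lists of equal length left 3 at 24 h. The 12 lamin B1 counts, 3 times under 4 alternatives, stayed within 1.5 times the value reported.

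Over all genes, a fit of only the groups compared called 1109 in place of 2254 genes between untreated KD and control cells, 909 in place of 3241 at 24 h, and 724 in place of 465 and 86 in place of 540 for the difference of responses at 8 h and 24 h. The replicate block called 284 in place of 465 genes for the difference at 8 h. With 1 library left out, the counts over all genes ran from 650 (without KD replicate 1) to 2497 between untreated KD and control cells, from 2330 (without control replicate 2) to 2432 at 8 h and from 1199 (without control replicate 1) to 4476 at 24 h, and those for the difference of responses are given above. Of 15 pairs of groups, 2 had a correlation of same-numbered samples over 0.1 (range -0.135 to 0.368). These were control with KD cells at 24 h (0.368) and KD cells untreated with KD cells at 24 h (0.184). Whether same-numbered samples of those groups share more than a number was not tested. With the 2-fold minimum, 486, 1333 and 411 genes were called in parental cells, 982 and 1670 in control cells, 1220 and 1768 in KD cells, 67, 92 and 61 between KD and control cells, and 30 and 53 for the difference of responses. Quantile normalization moved the share of rises among calls by over 10 points in the shRNA responses, as given above. The cause of each of these changes was not tested.

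Read numbers are unknown, so levels of low genes such as Notch3 and Heyl have no counting error, and 1 library per time point gives no error for any peak.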
